A study of Caenorhabditis elegans with 2 samples.

Results

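The Hedgehog-related and Patched-related genes of Caenorhabditis elegans were examined for binding of the GATA transcription factor ELT-1 in L3 larvae. Members were the protein-coding genes of the Ensembl WBcel235 annotation whose symbols start with wrt-, grd-, grl- or ptr-, together with hog-1, qua-1, ptc-1 and ptc-3. This gave 85 of 19985 protein-coding genes, of which 59 encode ligand-like secreted proteins (10 wrt, 16 grd, 31 grl, hog-1 and qua-1) and 26 encode receptor-like membrane proteins (24 ptr and 2 ptc). The symbol ptc-2 belongs to a pseudogene in the RefSeq gene table and was therefore not a member.

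Hedgehog-related proteins of the worm are secreted proteins grouped by their amino-terminal domain into the warthog (wrt), groundhog (grd) and ground-like (grl) families, and several carry the self-cleaving Hog domain known from Hedgehog itself. The Patched-related (ptr) and Patched (ptc) proteins are multipass membrane proteins with a sterol-sensing domain. The worm has no clear orthologue of Smoothened, and these families are known mainly from molting, cuticle formation and epithelial development. Many are expressed in the epidermis, whose fate depends on ELT-1, and ELT-1 binds the sequence WGATAR, where W is A or T and R is A or G.

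Chromatin immunoprecipitation and sequencing (ChIP-seq) was carried out on whole worms of strain OP354, which carries unc-119(tm4063) on chromosome III and the transgene wgIs354 with eGFP-tagged elt-1. There was 1 group, mixed-sex L3 larvae, sampled as biological replicates 1 and 2, and it has no second genotype or condition to be compared with. Both replicates carry the transgene, and whole worms do not show in which cells a site was bound. The thresholded list held 1910 peaks that passed the irreproducible discovery rate (IDR), which scores how far the ranking of peaks repeats in separate libraries, and the relaxed lists held 30000 pooled, 29029 replicate 1 and 30000 replicate 2 regions. The signal value of a peak is the authors' own and only ranks peaks within its list. The IDR peaks are the strongest of the pooled list, with signal values from 27.7 upward, and read depth is unknown.

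Most member promoters with a thresholded peak were groundhog promoters. The promoter window of a gene covered the 1000 bp before and the 200 bp after each annotated start of its protein-coding transcripts. An IDR summit lay in this window for 8 members, namely grd-3, grd-4, grd-5, grd-10, grd-13, grd-14, wrt-10 and the receptor gene ptr-18. The DNA within 50 bp of these 8 summits is shown because it carries the sites described next. Each sequence is WBcel235 (ce11), written 5′ to 3′ on the strand of the gene, with every WGATAR or its reverse complement in capitals. The windows are chrIV:3441002-3441102 for grd-10, chrIV:3438141-3438241 for grd-13, chrIV:3439467-3439567 for grd-3, chrII:12965299-12965399 for ptr-18, chrV:8618864-8618964 for grd-5, chrX:8501086-8501186 for grd-4, chrX:8499616-8499716 for grd-14 and chrII:7534557-7534657 for wrt-10, which is on the minus strand while the others are on the plus strand.
grd-10: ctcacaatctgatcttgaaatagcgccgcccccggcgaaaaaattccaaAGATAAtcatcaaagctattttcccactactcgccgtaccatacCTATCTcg
grd-13: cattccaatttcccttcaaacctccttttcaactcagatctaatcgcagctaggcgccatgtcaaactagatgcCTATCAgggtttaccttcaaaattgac
grd-3: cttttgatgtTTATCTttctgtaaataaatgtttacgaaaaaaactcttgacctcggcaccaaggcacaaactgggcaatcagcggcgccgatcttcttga
ptr-18: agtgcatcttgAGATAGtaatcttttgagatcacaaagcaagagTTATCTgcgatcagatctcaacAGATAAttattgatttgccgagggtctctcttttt
grd-5: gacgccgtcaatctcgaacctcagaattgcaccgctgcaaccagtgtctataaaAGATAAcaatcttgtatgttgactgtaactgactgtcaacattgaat
grd-4: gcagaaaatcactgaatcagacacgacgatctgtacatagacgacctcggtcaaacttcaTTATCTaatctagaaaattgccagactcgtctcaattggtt
grd-14: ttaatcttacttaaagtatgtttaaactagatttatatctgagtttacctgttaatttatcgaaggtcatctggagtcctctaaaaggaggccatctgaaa
wrt-10: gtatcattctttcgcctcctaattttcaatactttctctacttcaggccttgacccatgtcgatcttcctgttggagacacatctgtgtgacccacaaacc

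Of the 8 summits, 6 had WGATAR within 50 bp, 75.0% (exact Clopper-Pearson 95% interval 34.9 to 96.8), beside 33.1% of all 849 IDR summits in promoter windows. The AGATAA form was present at 5 of the 8, 62.5%, beside 18.6% of all IDR summits in promoter windows. The 5 were grd-10, grd-3, grd-5, grd-4 and ptr-18. At grd-13 the site was TGATAG. The summits of grd-14 and wrt-10, the weakest of the 8, had no WGATAR in this window. The site centre was 2 bp from the summit at grd-10, 4 bp at ptr-18, 6 bp at grd-5, 12 bp at grd-4, 26 bp at grd-13 and 38 bp at grd-3. The longest run of bases that any 2 of these windows share on either strand was 9 bp, between grd-13 and grd-14. They are thus not identical copies, but the windows were not aligned, so diverged copies could not be recognised.

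Most of the IDR summits in promoter windows of members were at groundhog genes, and no ground-like gene had one in its window. Among grd genes, 6 of 16 had an IDR summit in the window, 37.5% (15.2 to 64.6). Among wrt genes it was 1 of 10 (0.253% to 44.5%), and among grl genes 0 of 31, for which the upper bound is 11.2%. All ligands together had 7 of 59, 11.9% (4.91 to 22.9), receptors had 1 of 26, 3.85% (0.0973 to 19.6), and all members had 8 of 85, 9.41% (4.15 to 17.7). The share among all protein-coding genes was 5.03%. The intervals of ligands and receptors overlap, and without the grd genes the ligands had 1 of 43, 2.33% (0.0589 to 12.3). These intervals treat genes as independent, whereas the 6 grd genes with a peak lie at 3 loci, and the differences between families are described and were not tested.

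**Figure D1:**
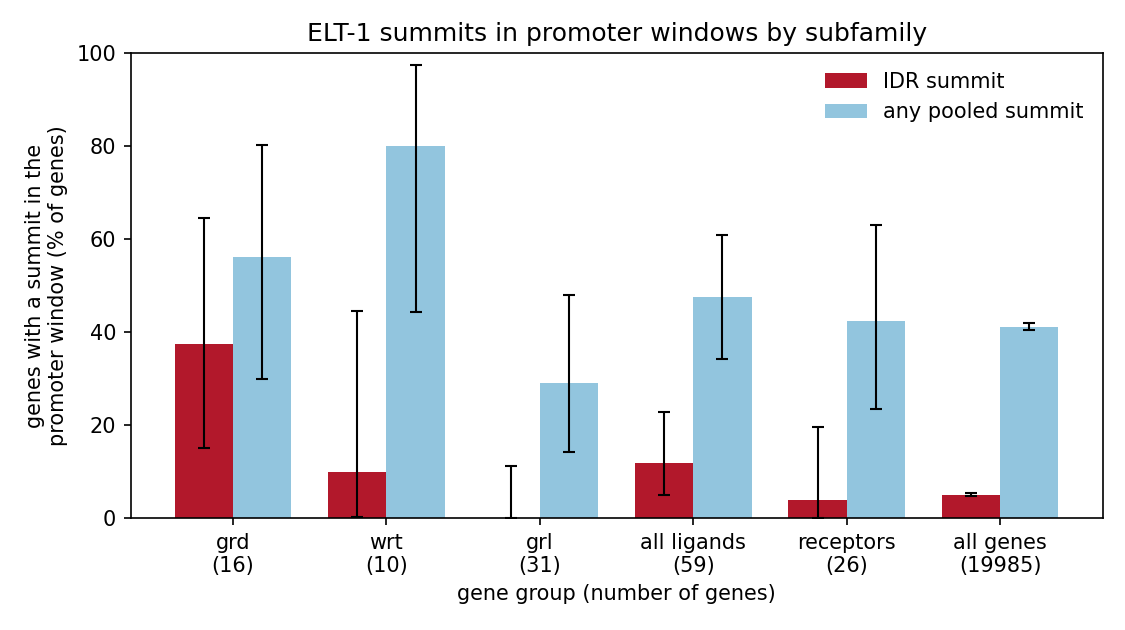
Share of genes (%) with a summit in the promoter window, for IDR summits (red) and for any summit of the relaxed pooled list (blue), with exact 95% intervals as error bars. The grd family stands highest for IDR summits at 37.5%, while the grl family has none and the blue bars of ligands (47.5%) and receptors (42.3%) lie near that of all genes (41.2%).

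The relaxed pooled list, which can include background, ordered the families differently, with wrt genes highest and grl genes lowest. A pooled summit lay in the window of 39 of 85 members, 45.9% (35.0 to 57.0), beside 41.2% of all protein-coding genes. The count was 28 of 59 for ligands and 11 of 26 for receptors, and by family 9 of 16 for grd, 8 of 10 for wrt, 9 of 31 for grl and 10 of 24 for ptr. The remaining 46 members had no listed pooled summit in the window. Among genes with a pooled summit, 12.2% of all had an IDR summit, and among members it was 8 of 39, 20.5%. For the grd genes it was 6 of 9, and the median signal of their strongest pooled summit was 60.1, against 7.86 for grl, 9.71 for wrt, 9.11 for receptors and 9.6 for all genes with a pooled summit.

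**Figure D2:**
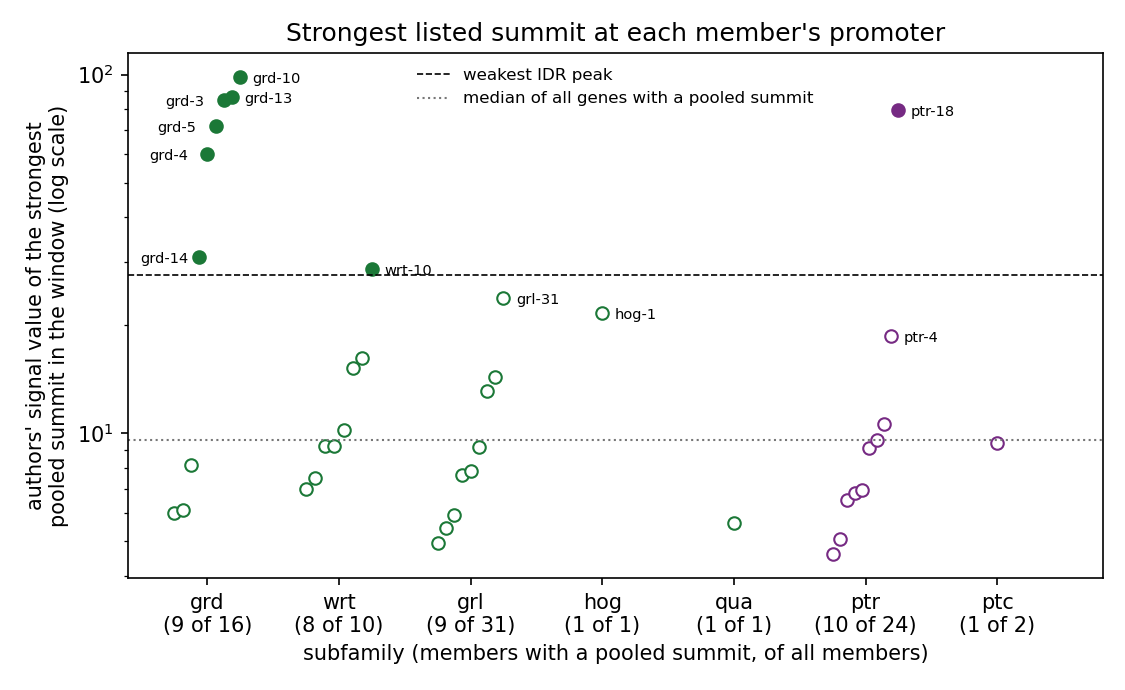
Signal value (log scale) of the strongest pooled summit in the promoter window of each member that has one, by family, with ligands in green and receptors in purple. Filled points are IDR peaks, which lie above the dashed line at 27.7, and the 6 filled grd points span 31.0 to 98.6 while the other 3 grd points lie at 8.13 and below.

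The strongest promoter peaks of the ligands lay in a tandem group of 3 groundhog genes on chromosome IV. The genes grd-13, grd-3 and grd-10 follow each other on the plus strand with 1343 bp and 1400 bp between their starts, and a separate summit lay just upstream of each start. At grd-10 (WBGene00001699, IV, 3441055 to 3441841), whose promoter is in use as a seam cell reporter, the peak spanned 3440938 to 3441155 with its summit 3 bp upstream of the start. Its signal was 98.6, and it ranked 155 in the pooled list, 145 in replicate 1 and 163 in replicate 2. It was the strongest promoter peak of all members.

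At grd-13 (WBGene00001702, IV, 3438312 to 3439507) the peak at 3438148 to 3438289 had a signal of 86.9 and its summit lay 121 bp upstream of the start. It ranked 202 in the pooled list, 147 in replicate 1 and 245 in replicate 2. At grd-3 (WBGene00001692, IV, 3439655 to 3440453) the peak at 3439434 to 3439601 had a signal of 85.2, with the summit 138 bp upstream. It ranked 214 in the pooled list, 362 in replicate 1 and 189 in replicate 2, so the 3 peaks were among the 1910 strongest of each replicate. One more IDR summit, with a signal of 32.2 and no WGATAR within 50 bp, lay 885 bp downstream of the grd-10 start, past the end of the gene. It ranked 1476 in replicate 2 but 3252 in replicate 1, which puts it outside the 1910 strongest there.

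**Figure D3:**
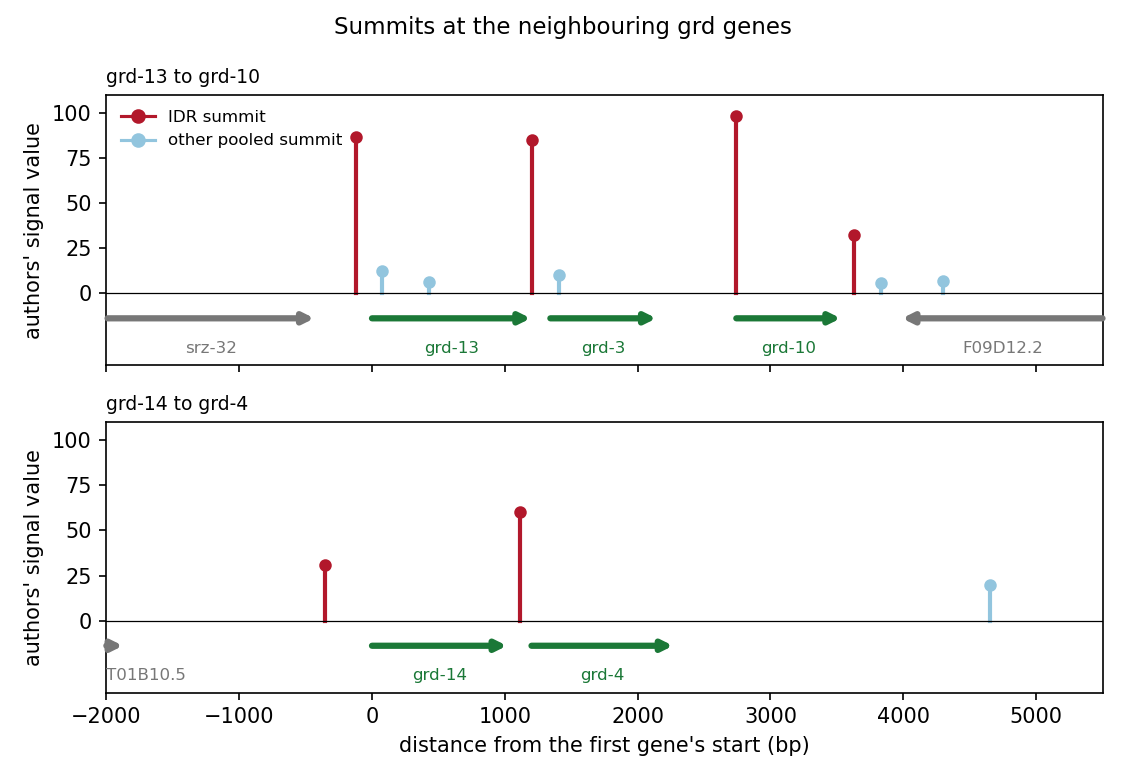
Signal value of pooled summits against distance (bp) from the start of grd-13 (upper panel) and of grd-14 (lower panel), with IDR summits in red, other pooled summits in blue and genes as arrows. Each grd gene has its own IDR summit just upstream of its start, at signals of 86.9, 85.2 and 98.6 in the upper panel and 31.0 and 60.1 in the lower panel.

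A tandem pair of groundhog genes on the X chromosome showed the same arrangement at lower signal. The starts of grd-14 and grd-4 are 1201 bp apart on the plus strand. At grd-4 (WBGene00001693, X, 8501222 to 8502288) the peak at 8500966 to 8501305 had a signal of 60.1 with the summit 86 bp upstream of the start, and it ranked 543 in replicate 1 and 497 in replicate 2. At grd-14 (WBGene00001703, X, 8500021 to 8501037) the peak at 8499496 to 8499835 had a signal of 31.0 with the summit 355 bp upstream, the farthest of the 8. It ranked 830 in replicate 1 and 2132 in replicate 2, so replicate 2 alone would not place it among the 1910 strongest.

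The remaining ligand promoter peaks were those of grd-5 and wrt-10. At grd-5 (WBGene00001694, V, 8619032 to 8619870) the peak at 8618850 to 8618951 had a signal of 72.1 with the summit 118 bp upstream of the start, ranking 452 in replicate 1 and 271 in replicate 2. At wrt-10 (WBGene00006956, II, 7533262 to 7534563, minus strand) the peak at 7534437 to 7534776 had a signal of 28.7, close to the lowest IDR signal. Its summit lay 44 bp upstream of the start, in an exon of the non-coding gene ZK1290.21, and also in the window of the neighbouring gene ZK1290.13. It ranked 1293 in replicate 2, whereas the replicate 1 list had no summit within 100 bp, so this peak rests on replicate 2. It was the only IDR summit in a member's window that also fell in the window of another protein-coding gene.

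Among the receptors, ptr-18 was the only gene with an IDR summit in the promoter window. The gene ptr-18 (WBGene00004232, II, 12965546 to 12978171, plus strand) is known for keeping progenitor cells quiescent in starved larvae. Its peak at 12965266 to 12965430 had a signal of 79.6 with the summit 197 bp upstream of the start, and ranked 242 in the pooled list, 283 in replicate 1 and 244 in replicate 2. The window around this summit held 3 WGATAR sites, AGATAG once and AGATAA at the other positions, which is more than any other of the 8.

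The 8 summits lay close to the annotated starts. All were upstream, from 3 to 355 bp away with a median of 120 bp. Among all 1061 pairs of a gene and an IDR summit in its window, the median was 265 bp upstream. Of the 8 summits, 6 were among the 1910 strongest of both replicates, 75.0%, beside 52.8% of all promoter IDR summits, and the exceptions were grd-14 and wrt-10.

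**Figure D4:**
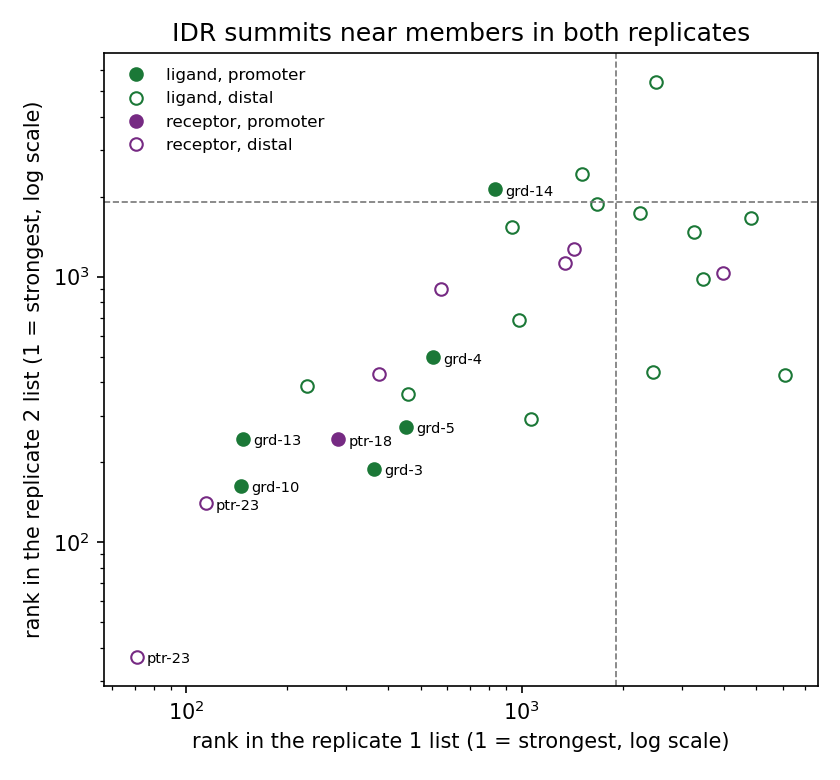
Rank of each IDR summit within 5 kb of a member in the replicate 1 list (x axis) and the replicate 2 list (y axis), both log scales with 1 the strongest, for the 28 of 30 summits listed in both replicates. Dashed lines mark rank 1910, and of the filled promoter points only grd-14 lies beyond a line, at rank 2132 in replicate 2.

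The strongest regions of each replicate alone were set beside the IDR list, which was derived from the same replicates and so shares members with each. With the 1910 strongest regions of replicate 1 in place of the IDR list, 9 members had a summit in the window, beside 4.59% of all genes, and 7 of these were among the 8. The added genes were hog-1, which encodes a protein with a Hog domain, and wrt-3, while wrt-10 was missing. With the 1910 strongest of replicate 2, 7 members had one, all among the 8 and without grd-14, beside 5.03% of all genes. Common to both replicates were grd-3, grd-4, grd-5, grd-10, grd-13 and ptr-18. Only replicate 1 had wrt-3, hog-1 and grd-14, and only replicate 2 had wrt-10. Over the whole relaxed lists, 19 of 85 members, 22.4%, had a summit in the window in both replicates, beside 24.4% of all genes.

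Below the IDR threshold, the strongest promoter summits of ligand genes were weaker. At grl-31 the pooled signal was 23.9 (rank 2382), with a rank of 7507 in replicate 1 and 3698 in replicate 2 for the strongest summit in the window. At hog-1 it was 21.7 (rank 2725), with 1431 in replicate 1 and 4602 in replicate 2. These are the members nearest below the lowest IDR signal of 27.7, as wrt-10 at 28.7 is the nearest above it. The next ligands were wrt-5 at 16.2, wrt-3 at 15.2, grl-4 at 14.3, grl-26 at 13.1 and wrt-8 at 10.2. Of these, wrt-3 ranked 1554 in replicate 1 but 22854 in replicate 2, and wrt-5 and wrt-8 had no summit in the window in replicate 1. For qua-1, a gene required for molting, the pooled signal was 5.63 (rank 23328), in its coding exon.

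Without an IDR summit in the window, the strongest pooled signal per gene spanned 4.95 to 23.9 over ligands and 4.59 to 18.7 over receptors, so the ranges overlapped. The strongest such receptor was ptr-4, a gene needed for the precuticle matrix, at 18.7 (rank 3378), with its summit 946 bp upstream of the start. It was followed by ptr-23 at 10.6, ptr-8 at 9.59, ptc-3 at 9.36, ptr-19 at 9.11, ptr-20 at 6.94, ptr-16 at 6.82 and ptr-14 at 6.53. The Patched gene ptc-1, known for its role in the germline, had no pooled summit in its window, and its nearest IDR summit was 37637 bp from a start.

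WGATAR was common in promoter windows with and without a peak. It occurred in the window of the gene's 5′ end in 7 of 8 members with an IDR summit and 71 of 77 members without one. Over all members it was 91.8%, beside 93.3% of all protein-coding genes, with a median of 3 sites in each group. The grd genes with a peak had a median of 4 sites and those without had 3.5. The narrower form AGATAA was in the window of 7 of 8 members with a peak and 51 of 77 without, 68.2% of members in all and 55.7% of all genes. At the 43 pooled summits in member windows that were outside the IDR list, WGATAR lay within 50 bp of 8, 18.6% (8.39 to 33.4), beside 21.3% of all such summits.

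Several ligand and receptor genes had IDR summits outside the promoter window. A distal summit was one within 5 kb of a start and outside the gene's own windows. Of all 85 members, 19 had a distal IDR summit and none in the promoter window, 22.4%, beside 10.7% of all protein-coding genes. By class it was 14 of 59 ligands, 23.7%, and 5 of 26 receptors, 19.2%. For 8 of the 19, 9.41% of members, the member's own start was the nearest protein-coding start to a summit, beside 3.36% of all genes. This was the case for 3 of 59 ligands, 5.08%, and 5 of 26 receptors, 19.2%. For the other 11 ligands every distal summit was nearer to a start of another gene. The ligand genes are shorter, with a median of 1784 bp, against 6153 bp for the receptor genes, and the part of gene length in this difference was not tested. In all, 27 members had an IDR summit in the window or within 5 kb, and 58 had none.

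**Figure D5:**
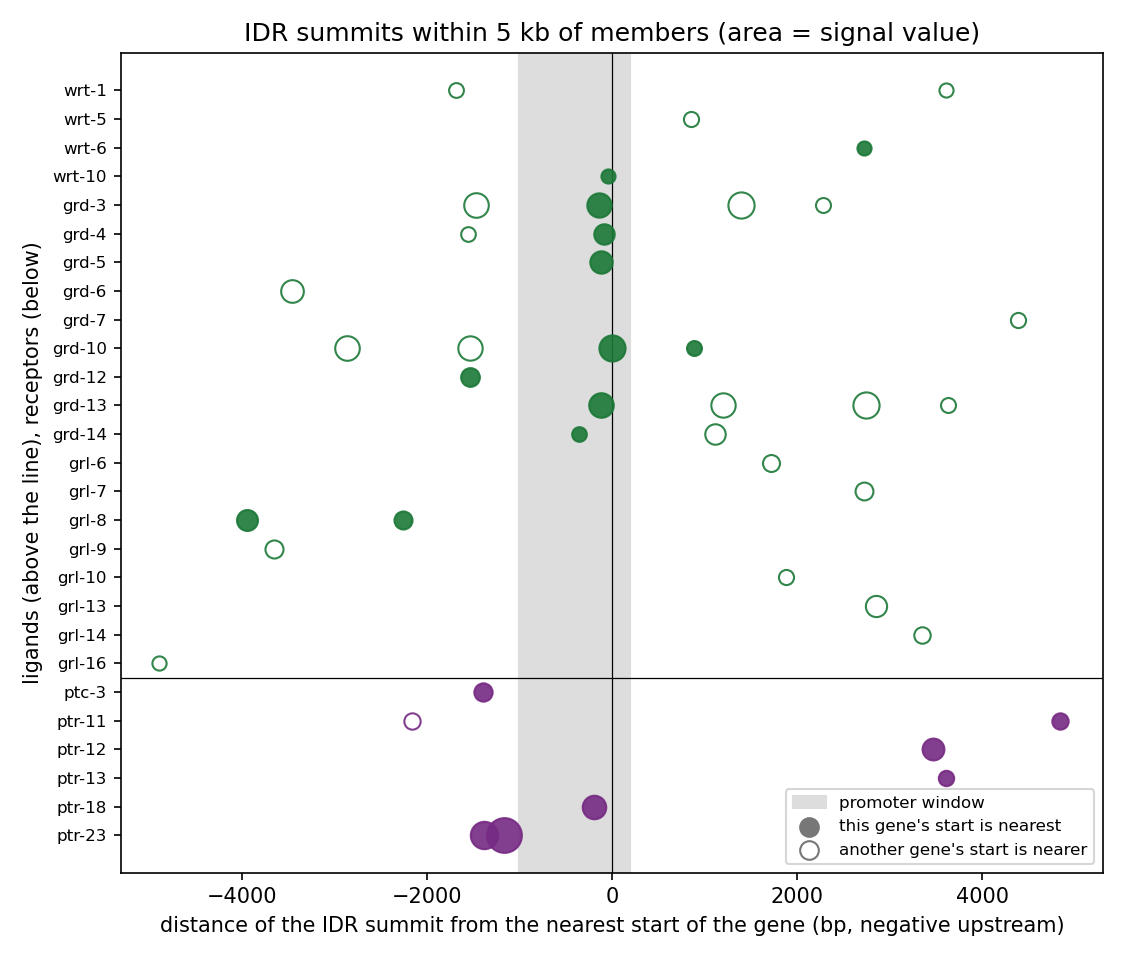
Distance (bp) of each IDR summit from the nearest start of the member, for the 27 members with a summit within 5 kb, ligands above the line and receptors below, with the area of a point in proportion to its signal value. Filled points have the member's start as the nearest one, and the largest points are at ptr-23, with signals of 174 and 108, just outside the shaded promoter window.

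The strongest peaks near any member were at the receptor gene ptr-23. This gene (WBGene00004237, chromosome I, 14906792 to 14913083, plus strand) is known from work on the osmotic stress response and has annotated starts at 14906792 and 14909240. The peak at 14907965 to 14908231 had a signal of 174 and ranked 45 in the pooled list, 71 in replicate 1 and 37 in replicate 2. It lay in an intron, 1286 bp downstream of the upstream start and 1162 bp upstream of the downstream start, and AGATAA and TGATAA were within 50 bp of its summit. A further peak at 14905322 to 14905482 had a signal of 108, 1387 bp upstream of the upstream start, and ranked 114 in replicate 1 and 140 in replicate 2, with AGATAG within 50 bp. Both signals were above that of every promoter peak of the members, although the promoter window itself held no IDR summit.

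Other receptors had weaker distal peaks. The essential gene ptc-3 had a summit 1394 bp upstream of its nearest start (II, peak 2853817 to 2854156, signal 48.2), with no WGATAR within 50 bp and ranks of 573 in replicate 1 and 900 in replicate 2. At ptr-12 an intronic summit 3468 bp downstream of the start had a signal of 68.7. Another, in a coding exon 7588 bp downstream and so past the distance limit, had 46.2 and was nearer to the start of fbp-1, at 1582 bp. At ptr-11 the summits lay 4838 bp downstream and 2162 bp upstream of the nearest start, at 38.5 and 38.4, and the upstream one, in an intron of cest-27, was nearer to the start of that gene. At ptr-13 a summit in a coding exon 3611 bp downstream had a signal of 34.1. The summits of ptr-12 and ptr-11 within 5 kb were among the 1910 strongest of both replicates, whereas that of ptr-13 ranked 3989 in replicate 1.

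Among ligands with no IDR summit in the promoter window, grl-8, grd-12 and wrt-6 had a distal peak to which their own start was the nearest. Upstream of grl-8, summits at 2253 bp and 3940 bp had signals of 46.9 and 63.2, with AGATAG at the nearer and TGATAA at the farther one. The nearer one ranked 427 in replicate 2 but 6098 in replicate 1. At grd-12 a summit 1532 bp upstream, in an intron of F02D8.1, had a signal of 50.5 with AGATAA within 50 bp, ranking 979 in replicate 1 and 686 in replicate 2. At wrt-6 a summit in a coding exon 2726 bp downstream had a signal of 28.7, ranked 2505 and 5416 in replicates 1 and 2, and so was among the 1910 strongest of neither. In wrt-9 an intronic summit 10643 bp downstream of the start, beyond the distance limit, had a signal of 48.4 and AGATAA within 50 bp.

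The other ligands with distal IDR summits alone had a start of another gene closer to each. These were wrt-1 (strongest distal signal 31.5), wrt-5 (32.9), grd-6 (73.8), grd-7 (33.1), grl-6 (41.4), grl-7 (46.0), grl-9 (46.9), grl-10 (32.8), grl-13 (64.8), grl-14 (38.9) and grl-16 (29.0). For wrt-5 the summit lay in the promoter window of pcn-1, and for grl-10 in those of the ribosomal protein genes rpl-39 and rps-30. Over all members, ligands and receptors together, 15 distal summits lay in no promoter window. WGATAR was within 50 bp of 10 of these, 66.7% (38.4 to 88.2), beside 44.0% of all IDR summits so placed. Over the 7 distal summits of members in the window of another gene it was 3.

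Other genes related to the pathway had no IDR summit in their promoter windows. A list of 13 was examined, with the Gli-related gene tra-1, the Dispatched-related genes che-14 and ptd-2, the Patched-related gene daf-6, the Niemann-Pick type C genes ncr-1 and ncr-2, scp-1, the acyltransferase genes hhat-1 and hhat-2, the megalin gene lrp-1, and the kinase genes gsk-3, kin-1 and kin-19. The count was 0 of 13 with an upper bound of 24.7%, beside the 5.03% of all genes given above. A pooled summit was listed in the window of 8 of the 13, 61.5%, beside 41.2% of all protein-coding genes. The strongest were at kin-1 (signal 23.2, rank 2498) and che-14 (13.7, rank 5446), and tra-1, ptd-2, daf-6, lrp-1 and kin-19 had none. The nearest IDR summits were 1778 bp from a start of kin-1, 3242 bp for gsk-3 and 4422 bp for lrp-1, and 34491 bp for daf-6. A distal IDR summit and none in the window was thus found for 3 of the 13, 23.1%, beside 10.7% of all protein-coding genes.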

How the data were processed

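Per the authors' library file lists, relaxed peak lists were called for each replicate and for both pooled, each with a control, and the IDR list was derived from these. The sources used here name no aligner, peak caller or IDR threshold, and the control was not analysed here. The lists on ce11 were used, with the WBcel235 genome and Ensembl release 115. Each deposited peak has a signal value of the authors' own scale. The deposited −log10 q values reach a ceiling of 3.83 shared by all IDR peaks and go down to 0.0361 in the pooled list, so they did not rank peaks. The summit is a deposited offset from the peak start.

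A summit counted for every gene whose window held it. Annotated starts of trans-spliced genes can differ from where transcription begins. Summits within 100 bp were matched between lists. The search for WGATAR covered each strand and used Python 3.11.15 with numpy 2.4.6, pandas 2.3.3 and scipy 1.17.1; the window and site code was tested on simulated data. Members and lists were chosen with earlier results of these data known. The genes named in the text were every member with an IDR summit in the window or within 5 kb, the 6 other members of each class with the highest pooled signal, hog-1, qua-1, ptc-1, ptc-2, ptc-3 and daf-6. Beyond this rule, wrt-9 and ptr-12 in-gene summits past 5 kb and pathway genes without an IDR summit are named, chosen after their values were seen. No list test was run: counts are set beside those of all protein-coding genes. Alternatives were other windows, start definitions, distances, a stricter threshold and each replicate alone. Intervals cover counting of genes or summits only.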

Additional observations from a re-analysis of the deposited data

How the results depend on the processing

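The count of 8 members with an IDR summit in the promoter window ranged from 6 to 12 over the alternatives, and that of ligands from 5 to 9 around 7. The receptor count stayed at 1 except with a window from 2000 bp upstream to 500 bp downstream. There it was 3 of 26, with ptr-23 and ptc-3 added, beside 9 of 59 for ligands. The shares of receptors and ligands thus lay closer together in that wider window than in the main one. The wider window also raised the genome-wide count, from 1006 to 1435 out of 19985. In the 955 stronger IDR peaks, all protein-coding genes with a promoter summit numbered 477 in place of 1006, and members with a distal summit only numbered 11 in place of 19. With a distance limit of 3 kb that number was 12, and with 10 kb it was 23. All genes with a distal summit only were not counted at these settings, so the contrast with all genes is not shown there. Leaving out replicate 1 gave 7 members and leaving out replicate 2 gave 9. WGATAR was found at 4 of the 8 promoter summits within 25 bp and at 7 within 100 bp. The shares of all promoter IDR summits at these distances were not counted. No paired analysis was possible because there is 1 group and no test between groups. Read depth is unknown, so weak or absent peaks could not be told apart from limited depth, and a promoter without a listed summit is not shown to be unbound.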
